A study of Mus musculus with 22 samples.

Results

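The carbonic anhydrases examined here are Car2, Car3, Car4, Car5b, Car6, Car8, Car9, Car12 and Car13, 9 of the 30170 genes in the expression table. The family was chosen by the measured level of Car2, which was lower in the double mutant than in WT cells, so the values of Car2 in those libraries, and every difference between the double mutant and WT, are given as a description with no test. All libraries came from C3H 10T1/2, a mouse mesenchymal cell line that can become adipocytes, made to carry wild-type DNMT3A (WT), DNMT3A W330R, or the double mutant DNMT3A W330R-R181E. The study asked how hypermethylation driven by the DNA methyltransferase DNMT3A bears on differentiation. Cells were kept in DMEM with fetal bovine serum and, for differentiation, given isobutylmethylxanthine, dexamethasone, insulin and troglitazone, followed by insulin. WT and W330R were sampled undifferentiated and on days 2, 4 and 6 of differentiation, and the double mutant on days 2, 4 and 6, with 2 libraries in each of 11 conditions (22 libraries). The column names of the 6 double mutant libraries give the second change as R181A and the sample labels as R181E, and each column was assigned through its genotype, its day and the number of its replicate. The labels say neither whether the replicates came from separate cultures or clones, nor whether the cells kept their own Dnmt3a.

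Carbonic anhydrases interconvert carbon dioxide and water with bicarbonate and a proton, most of them with a zinc ion in the active site. The family divides by where the enzyme works. Car2, Car3 and Car13 are cytosolic, Car5b is mitochondrial, Car6 is secreted, and Car4, Car9 and Car12 sit at the outer face of the plasma membrane. Car8 is a related cytosolic protein that has lost catalytic activity and binds the inositol trisphosphate receptor. Car2 is the fast, widespread isoform, found in red cells and osteoclasts. Car3 is a slow isoform abundant in fat, liver and skeletal muscle. Mitochondrial carbonic anhydrases supply bicarbonate to carboxylases such as pyruvate carboxylase, and Car9 and Car12 are known targets of hypoxia signalling.

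DNMT3A methylates cytosines in CpG, so the upstream sequences of the members that turn up in the results below are shown with each CG in capitals. RefSeq promoter entries (GRCm38.p6) were found for 5 of the 9 members, namely Car4, Car5b, Car6, Car9 and Car12. The entries of 3 are printed, as the 250 bases before the annotated start on the coding strand, 5′ to 3′. They lie at chrX:164028011-164028260 (minus strand, Car5b), chr4:150201136-150201385 (minus strand, Car6) and chr4:43506776-43507025 (plus strand, Car9).
Car5b: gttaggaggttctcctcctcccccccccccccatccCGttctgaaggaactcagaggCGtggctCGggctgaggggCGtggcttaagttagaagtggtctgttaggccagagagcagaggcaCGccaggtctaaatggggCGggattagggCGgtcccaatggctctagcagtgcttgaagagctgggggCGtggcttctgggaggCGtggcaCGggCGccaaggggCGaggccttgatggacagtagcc
Car6: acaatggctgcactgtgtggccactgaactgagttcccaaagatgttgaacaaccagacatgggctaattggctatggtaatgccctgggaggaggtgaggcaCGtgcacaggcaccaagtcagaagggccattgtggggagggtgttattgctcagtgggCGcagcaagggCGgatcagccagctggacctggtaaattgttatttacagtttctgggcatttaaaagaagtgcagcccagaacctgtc
Car9: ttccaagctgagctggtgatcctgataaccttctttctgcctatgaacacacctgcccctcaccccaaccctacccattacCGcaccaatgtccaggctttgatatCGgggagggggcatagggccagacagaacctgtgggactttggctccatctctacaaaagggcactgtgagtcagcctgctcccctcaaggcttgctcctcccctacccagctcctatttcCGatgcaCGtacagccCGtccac
The Car5b window held 12 CG, the Car6 window 3 and the Car9 window 5, beside a median of 6 over the 32851 promoter entries. The Car4 window held 11 and the Car12 window 6. The core letters of the hypoxia response element were searched on both strands as ACGTG and GCGTG. Car9, the family member best known for this element, held ACGTG on the opposite strand from 18 to 14 bases before the start. Car6 held ACGTG on both strands at 1 place, from 149 to 144 bases before the start, where the 2 matches overlap. Car5b held GCGTG at 5 places. ACGTG occurred in 16.6% of all promoter windows and GCGTG in 28.2%. No DNA methylation was measured in these libraries, and these matches describe letters, not bound sites.

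Between 8859501 and 47453908 counts were assigned to genes in each library, with a median of 19355792. Levels are given as CPM, the counts scaled to the size of each library after TMM normalization. They are not divided by transcript length, so values are compared between libraries and not between genes. The share of all genes whose libraries do not overlap between conditions was not computed, so statements on overlap below are descriptions. The nearest library in overall expression was of the same condition for 10 of the 22 libraries, of the same genotype for 14 and of the same stage for 18. From day 2 on, Dnmt3a stood at 105 to 322 CPM in WT libraries and at 87.4 to 142 CPM in W330R. The double mutant, which was not sampled undifferentiated, held 68.5 to 148 CPM. Undifferentiated libraries held 347 and 345 CPM in WT and 326 and 316 CPM in W330R. These counts do not separate an introduced copy from the cells' own. All 9 mesenchymal markers were detected in the cells. Of these, 4 were called higher in W330R than WT (median of the list 0.34), beside 11.2% of all genes called higher. In the double mutant 4 were called lower than in W330R (median -0.64), beside 9.36% of all genes called lower. Of 10 adipocyte markers, Lep did not exceed 3 counts in any library, and the summed level of the list was 63.6 to 75.5 CPM in undifferentiated cells and 1504 to 9299 CPM from day 2 on. The columns of the undifferentiated libraries are named after another pattern than the rest, so the step from undifferentiated cells to day 2 cannot be told apart from a difference between sets of libraries.

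Of the 9 members, 7 passed the filter on low counts. Car4, a lipid-anchored surface isoform, had no more than 2 counts in any library. Car12, a transmembrane isoform, exceeded 3 counts in 2 of 22 libraries and reached 20 counts at most. Car8 passed the filter through undifferentiated WT cells and Car6 through undifferentiated and double mutant cells, with over 3 counts in 18 and 11 of the 22 libraries. Among the other carbonic anhydrase genes, Car10 and Car14 did not pass. The highest level in any library was 1.34 CPM for Car1, 0.985 for Car5a, 0.980 for Car7, 5.13 for Car11 and 3.55 for Car15.

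Car2, the cytosolic isoform by which the family was chosen, was nearly absent before differentiation. It was at 0 and 0.0891 CPM in the undifferentiated WT libraries (0 and 2 counts) and at 0 in both undifferentiated W330R libraries. In WT cells it stood at 4.91 and 2.36 CPM on day 2, 5.20 and 1.94 CPM on day 4, and 7.49 and 3.65 CPM on day 6. W330R cells held 2.99 and 1.52 CPM on day 2, 5.60 and 4.41 CPM on day 4, and 8.49 and 7.60 CPM on day 6. WT and W330R libraries thus overlapped on days 2 and 4, and on day 6 both W330R libraries were above both WT libraries.

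In the double mutant Car2 stayed close to the floor of detection. Its libraries held 0 and 0.297 CPM on day 2 (0 and 6 counts), 0.122 and 0.609 CPM on day 4 (2 and 14 counts), and 0.418 and 0.975 CPM on day 6 (18 and 9 counts). The highest of these 6 values was below the lowest of the 6 WT libraries of the same days, 1.94 CPM, and of the 6 W330R libraries, 1.52 CPM. As a description, the fitted difference from WT was -3.55 on the log2 scale (SE 0.52) averaged over days 2, 4 and 6, with -4.33 on day 2, -3.19 on day 4 and -3.13 on day 6. From W330R it was -3.67 (SE 0.52). The double mutant library of replicate 2 on day 2 set the size of the difference from WT most strongly, which was -5.16 without it. The ratio of pooled counts, double mutant over WT, was 0.0551 on day 2 (95% exact interval 0.0198 to 0.124), 0.122 on day 4 (0.0672 to 0.207) and 0.0954 on day 6 (0.0614 to 0.143). Such intervals cover counting error only.

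The W330R libraries took no part in the choice of Car2, so its course over time was tested in them alone. From undifferentiated W330R cells to day 2, Car2 was called, and its day 2 level was at least 7.63-fold higher than a floor of 3 counts per undifferentiated library (adjusted p = 0.00183, edgeR quasi-likelihood test with Benjamini-Hochberg adjustment over 14520 genes). Car2 passed the filter through libraries of days 2 to 6, those of day 2 among them, and not through undifferentiated ones. The call was kept in the fit without the filter. Between days 2 and 6 the log2 change of Car2 in W330R was 1.84 (SE 0.75, adjusted p = 0.0929), which was not called, although DESeq2 and a fit of these 2 conditions alone called it. For WT and the double mutant the values are a description. In WT the pooled counts of day 2 stood 56.9-fold above those of undifferentiated cells (95% exact interval 15.4 to 476), and the log2 change between days 2 and 6 was 0.62 (SE 0.74). In the double mutant that change was 1.82 (SE 1.03).

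**Figure D1:**
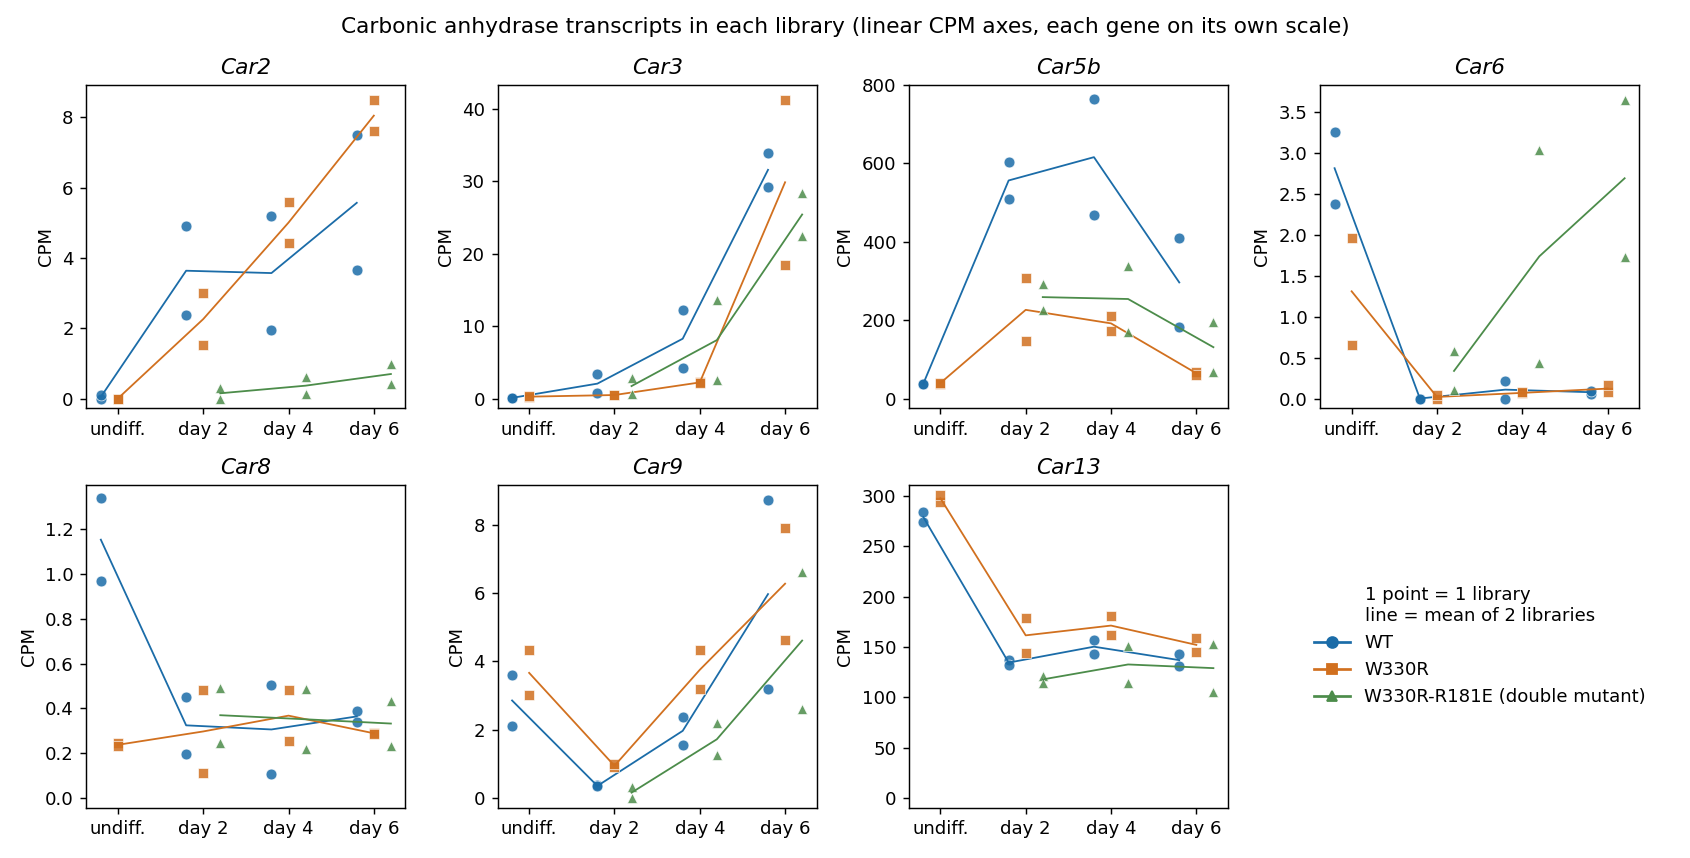
CPM of the 7 members that passed the filter, by stage, with 1 point for each library and lines through the mean of the 2 libraries of a condition; each gene has its own linear axis. Car2 of the double mutant lies at or under 0.975 CPM on every day, Car6 is at 0.435 CPM or more on days 4 and 6 in the double mutant libraries and at most 0.217 CPM in the others, and Car5b is highest in WT on days 2 and 4.

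Car3, the slow cytosolic isoform of fat and muscle, rose late in every genotype. Undifferentiated libraries had at most 3 counts. In WT cells Car3 was at 3.32 and 0.787 CPM on day 2, 12.3 and 4.25 CPM on day 4, and 29.3 and 33.9 CPM on day 6. W330R cells had 0.428 and 0.533 CPM on day 2, 2.29 and 2.15 CPM on day 4, and 18.5 and 41.3 CPM on day 6. The double mutant had 2.79 and 0.644 CPM on day 2, 13.6 and 2.52 CPM on day 4, and 28.4 and 22.4 CPM on day 6. On days 2 and 4 both W330R libraries were below every library of the other genotypes, while on day 6 the genotypes overlapped.

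From day 2 to day 6 the log2 change of Car3 was 3.99 in WT (SE 0.85, adjusted p = 0.0038), 5.93 in W330R (SE 0.96, adjusted p = 0.000788) and 3.96 in the double mutant (SE 0.87, adjusted p = 0.00555, edgeR). The change in WT was 5.31 without replicate 1 of day 2 and 3.26 without replicate 2, with the call kept. In the double mutant it was 5.29 and 3.20 without the same replicates of its own, and the call was lost in the latter case. Between W330R and WT, Car3 was not called at any stage of differentiation, with values of -2.02 for day 2 (SE 0.94, adjusted p = 0.274), -1.89 for day 4 (SE 0.80, adjusted p = 0.17) and -0.08 for day 6 (SE 0.73, adjusted p = 0.97). Averaged over all 4 stages, undifferentiated cells near 0 included, the difference was -0.65 (SE 0.64, adjusted p = 0.507). An average over days 2 to 6 alone, added after seeing the data, gave -1.33 (SE 0.48, adjusted p = 0.0494), just past the threshold. Between the double mutant and W330R the averaged difference was 1.12 (SE 0.48, adjusted p = 0.128).

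Car3 levels rose with those of Adipoq, the adipokine adiponectin, over the days of differentiation. Across the 22 libraries the Pearson correlation of log2 CPM between them was 0.857, and across the 18 libraries of days 2 to 6 it was 0.841. Genotype and day are shared by the points of such a correlation, which is given as a description. With Fabp4, the fatty acid binding protein of adipocytes, the values were 0.606 and -0.280. On day 6 Adipoq was at 753 and 1296 CPM in WT, above W330R (272 and 299 CPM). The double mutant held 339 and 453 CPM of Adipoq that day. Car3 overlapped between the genotypes on day 6, so it did not follow this difference. Of 6 skeletal muscle markers, Myod1, Myf5 and Ckm were at 0 counts in every library, Myog reached 1 count, Myh3 4 and Acta1 38. In WT, Acta1 was called higher on day 6 than on day 2, with mean levels of 0.373 and 0 CPM (adjusted p = 0.0153, edgeR). Its part in the Car3 rise was not tested. Bulk RNA cannot tell fewer cells of a type from less RNA per cell. The genes most like Car3 across the 22 libraries, among 11154 searched, were Apoe (r = 0.945), which encodes apolipoprotein E, Chadl (r = 0.942) and Pygo1 (r = 0.931).

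Car5b, the mitochondrial isoform, rose at the start of differentiation and stood lower in W330R. Undifferentiated cells of both genotypes were at 37.8 to 40.6 CPM. In WT it reached 510 and 603 CPM on day 2, 468 and 764 CPM on day 4, and 182 and 411 CPM on day 6. W330R held 307 and 146 CPM on day 2, 211 and 172 CPM on day 4, and 68.4 and 60.4 CPM on day 6. The double mutant held 226 and 292 CPM on day 2, 169 and 339 CPM on day 4, and 66.7 and 195 CPM on day 6. On every day both W330R libraries were below both WT libraries, and the double mutant libraries overlapped those of W330R on each day.

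Averaged over the 4 stages, Car5b in W330R was below WT by a log2 difference of -1.28 (SE 0.25, adjusted p = 0.00287, edgeR), a 2.43-fold decrease. It was the only 1 of the 6 members tested to be called in this comparison, in which 22.9% of all genes were called, 11.2% higher and 11.8% lower. The median difference was -0.21 over the 6 members and 0.01 over all genes. By stage the difference was 0.05 (SE 0.50, adjusted p = 1) in undifferentiated cells, -1.30 (SE 0.50, adjusted p = 0.18) on day 2, -1.68 (SE 0.50, adjusted p = 0.062) on day 4 and -2.20 (SE 0.51, adjusted p = 0.019) on day 6. Day 6 thus held the only call for a member at a single stage in the fit without a replicate block, beside 7.54% of all genes, and it was lost without either W330R library or without WT replicate 2 of that day (-1.51). No member was called in undifferentiated cells (Car8 left aside), on day 2 or on day 4, where 1.75%, 3.06% and 6.14% of all genes were called. The test in undifferentiated cells used a spread shared with the differentiating libraries, whose replicates differed more. With a replicate block Car5b was also called on day 4 (-1.63, SE 0.47, adjusted p = 0.0376), and the shares of all genes were 2.7% in undifferentiated cells and 6.26%, 12.7% and 12.1% on days 2, 4 and 6. As a description, the double mutant differed from WT by -1.19 (SE 0.29) over days 2 to 6. From W330R it differed by 0.54 (SE 0.28, adjusted p = 0.222).

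Over time, Car5b rose from undifferentiated cells to day 2 by 3.87 on the log2 scale in WT (SE 0.55, adjusted p = 5.37e-05) and by 2.52 in W330R (SE 0.52, adjusted p = 0.00128), the latter moving to 1.89 without W330R replicate 1 of day 2. From day 2 to day 6 it fell in W330R (-1.81, SE 0.50, adjusted p = 0.0177). That call was lost without replicate 1 of day 2 (-1.18), without replicate 1 of day 6 (-1.86) and without replicate 2 of day 6 (-1.69). In WT the change was -0.91 (SE 0.49, adjusted p = 0.191) and in the double mutant -0.99 (SE 0.49, adjusted p = 0.165). The difference of the W330R effect between day 6 and day 2 was -0.90 (SE 0.69, adjusted p = 0.958). Car5b followed Fabp4 across the 22 libraries with a Pearson correlation of log2 CPM of 0.826, and of 0.826 across the 18 libraries of days 2 to 6. With Adipoq the values were 0.611 and -0.163, and with Pparg 0.675 and 0.440, so Car5b did not follow all adipocyte genes. The summed adipocyte markers stood at 2767 to 9299 CPM in WT on days 2 to 6, at 1504 to 2679 CPM in W330R and at 1900 to 4322 CPM in the double mutant. Their part in the Car5b difference was not tested. Of the 50-base stretches in Car5b transcripts, 3.13% also occur in transcripts of other genes, so a small share of its reads could be assigned elsewhere.

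**Figure D2:**
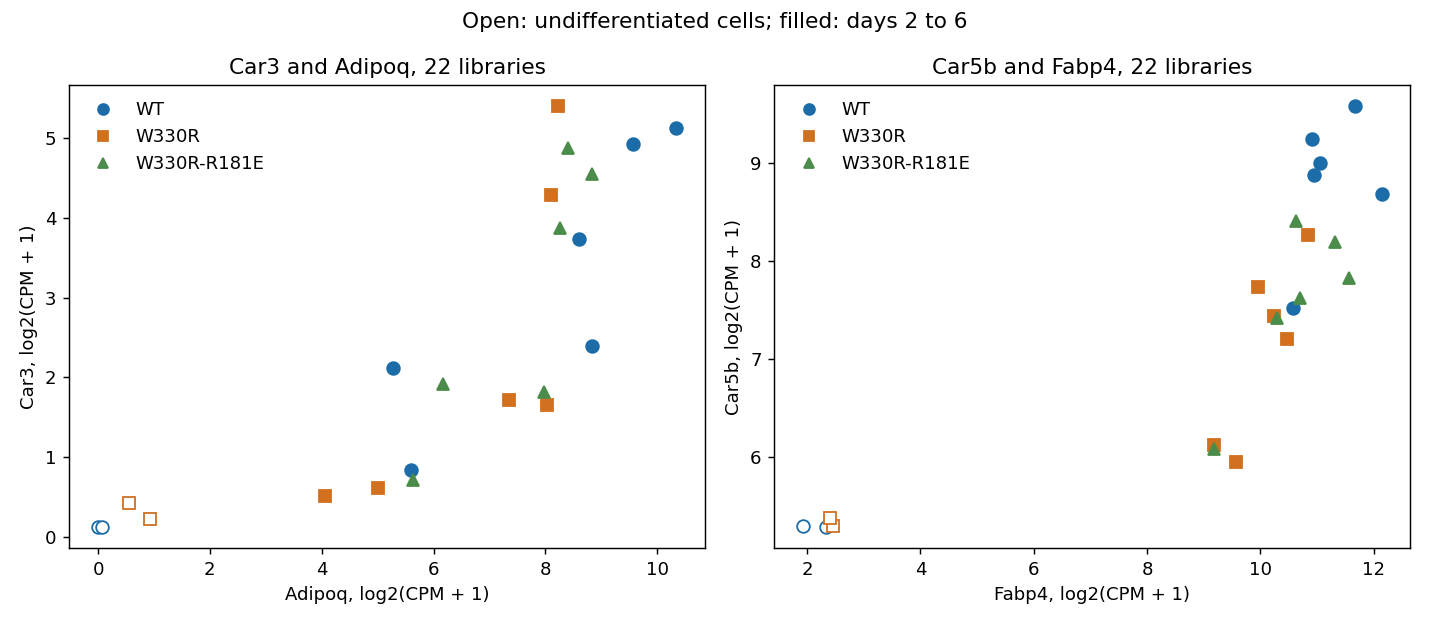
Log2(CPM + 1) of Car3 against Adipoq and of Car5b against Fabp4 in the 22 libraries, with 1 point for each library, open for undifferentiated cells. Car3 climbs with Adipoq in all genotypes (r = 0.841 on days 2 to 6), and 5 of the 6 WT libraries of days 2 to 6 lie above every W330R library in Car5b.

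Car6, the secreted isoform of saliva, set the double mutant apart in the opposite direction to Car2. It was at 2.38 and 3.25 CPM in undifferentiated WT cells (27 and 73 counts) and at 0.653 and 1.97 CPM in undifferentiated W330R cells (8 and 17 counts). On days 2, 4 and 6 WT libraries held no more than 3 counts and W330R libraries no more than 4. Double mutant libraries held 0.575 and 0.0990 CPM on day 2 (7 and 2 counts), 3.04 and 0.435 CPM on day 4 (50 and 10 counts), and 3.65 and 1.73 CPM on day 6 (157 and 16 counts). On each day both double mutant libraries were above every WT and W330R library of that day.

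Averaged over days 2 to 6, Car6 was called as higher in double mutant cells than in W330R cells (adjusted p = 0.00217, edgeR), with mean levels of 1.59 against 0.0696 CPM. Car6 passed the filter through double mutant libraries as well as undifferentiated ones, and the call was kept in the fit without the filter. The fitted log2 difference was 4.17 (SE 0.75), and depends on the prior count because W330R was near 0. It ranged from 3.51 to 4.89 when a library was left out, lowest without double mutant replicate 1 of day 4 and highest without W330R replicate 2 of day 2, with the call kept each time. The ratio of pooled counts was 12.5 on day 2 (95% exact interval 1.73 to 548), 21.7 on day 4 (7.06 to 108) and 31.4 on day 6 (15.6 to 73.8). No day passed the threshold on its own, and with a replicate block day 6 did (4.50, SE 1.07, adjusted p = 0.0399). Within the double mutant Car6 rose from day 2 to day 6 by 3.14 on the log2 scale (SE 1.05, adjusted p = 0.046). This call was lost without double mutant replicate 2 of day 2 (2.27), replicate 1 of day 6 (2.47) or replicate 2 of day 6 (3.54). From undifferentiated cells to day 2 Car6 fell in WT (adjusted p = 0.00117), where undifferentiated cells were at least 15.04-fold higher than the floor of 3 counts per day 2 library. It also fell in W330R (adjusted p = 0.00636), from 25 pooled counts to 1. The summed level of 5 chondrocyte markers was 217 to 2469 CPM in WT of days 2 to 6, 331 to 842 CPM in W330R and 259 to 6624 CPM in the double mutant. On days 4 and 6 the double mutant libraries were above those of W330R. On day 2 the lower of them (259 CPM) was below both W330R libraries (331 and 367.5 CPM). The part of these markers in the Car6 difference was not tested. Of the 5, 2 were called higher in the double mutant than W330R, with a median of 4.06, beside 7.87% of all genes called higher and a median of 0.01.

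Car9, the transmembrane isoform of hypoxic cells, dipped at day 2 and rose again. Undifferentiated WT cells were at 2.11 and 3.61 CPM and undifferentiated W330R cells at 4.33 and 3.01 CPM. WT libraries held 0.378 and 0.344 CPM on day 2, 2.38 and 1.56 CPM on day 4, and 8.73 and 3.21 CPM on day 6. W330R libraries held 0.909 and 0.990 CPM on day 2, 4.33 and 3.19 CPM on day 4, and 7.91 and 4.64 CPM on day 6. Those of the double mutant held 0.328 and 0 CPM on day 2, 2.19 and 1.26 CPM on day 4, and 6.62 and 2.60 CPM on day 6. The W330R libraries were the highest on days 2 and 4, and the genotypes overlapped on day 6.

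From day 2 to day 6 Car9 rose by 4.03 on the log2 scale in WT (SE 0.79, adjusted p = 0.00226), by 2.72 in W330R (SE 0.70, adjusted p = 0.0121) and by 5.07 in the double mutant (SE 0.90, adjusted p = 0.00181, edgeR). The rise in WT was 3.14 without replicate 1 of day 6. The W330R call was lost without either library of day 2 (2.66 and 2.79) or without replicate 1 of day 6 (2.32). The double mutant value was 9.61 without replicate 1 of day 2, which left the library at 0, and 3.84 without replicate 2, with the call kept. From undifferentiated cells to day 2 it fell, with a log2 change of -2.99 in WT (SE 0.78, adjusted p = 0.00574) and -1.95 in W330R (SE 0.70, adjusted p = 0.0341), the latter call being lost when any 1 of its 4 libraries was left out. Between the double mutant and W330R the averaged difference was -1.44 (SE 0.44, adjusted p = 0.038). This call was lost in 9 of 17 alternatives, 8 of which left out a library. The difference was -1.001 without double mutant replicate 2 of day 2 and -2.95 without replicate 1 of that day. Between W330R and WT Car9 was not called (0.69, SE 0.35, adjusted p = 0.174).

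Car13, a further cytosolic isoform, was steady within differentiation. It ranged from 274 to 301 CPM in undifferentiated cells, from 131 to 157 CPM in WT of days 2 to 6, from 144 to 180.9 CPM in W330R and from 105 to 153 CPM in the double mutant. From undifferentiated cells to day 2 it fell by 1.05 on the log2 scale in WT (SE 0.17, adjusted p = 0.000184) and by 0.88 in W330R (SE 0.17, adjusted p = 0.000833, edgeR). Day 6 differed from day 2 by 0.03 (SE 0.17) in WT, -0.09 (SE 0.17) in W330R and 0.13 (SE 0.17) in the double mutant, none of them called. The double mutant was lower than W330R by -0.35 (SE 0.10, adjusted p = 0.0249), a 1.28-fold decrease, and the call was lost in 7 of 17 alternatives, 6 of which left out a library. W330R was 0.17 above WT (SE 0.09, adjusted p = 0.162). Car13, Car3 and Car2 lie beside each other on chromosome 3 with Car1 among them. The 3 did not share a pattern over time in these libraries: Car13 fell from undifferentiated cells to day 2 while Car2 rose in W330R.

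Car8, the isoform without catalysis, was low throughout, with 2 to 30 counts in a library. It stood at 0.969 and 1.34 CPM in undifferentiated WT cells and at 0.245 and 0.231 CPM in undifferentiated W330R cells (3 and 2 counts). In all other libraries it was between 0.108 and 0.505 CPM. Car8 passed the filter through the undifferentiated WT libraries, where it was highest, so its difference from them is given as levels with no test. Car8 was kept among the 6 members counted for W330R against WT averaged over the 4 stages, which include these libraries, and was not called there.

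Counted over members, the double mutant differed from W330R in 3 of the 6 members tested (Car6 higher, Car9 and Car13 lower), beside 17.2% of all genes, 7.87% higher and 9.36% lower. Among 9 mesenchymal markers 4 were called lower there (median -0.64), and among 9 adipocyte markers 4 higher and 1 lower (median 0.63), and the part of these lists in the differences of Car6, Car9 and Car13 was not tested. The count fell to 1, Car6, without W330R replicate 1 of day 2, of day 4 or of day 6, or without double mutant replicate 2 of day 2. The median difference was 0.31 over these members and 0.01 over all genes. Without a block no member was called on a single day, where the share of all genes called was 2.67% for day 2, 1.91% for day 4 and 1.5% for day 6 (5.16%, 3.73% and 3.43% with the replicate block). From day 2 to day 6, 2 of the 6 members other than Car2 were called in WT (Car3 and Car9, both higher), 3 of 6 in W330R (Car3 and Car9 higher, Car5b lower) and 3 of 6 in the double mutant (Car3, Car6 and Car9, all higher). All genes were called at 26.6% in WT, with 14.8% higher and 11.8% lower, at 25% in W330R and at 23.2% in the double mutant. From undifferentiated cells to day 2, the background was 50.9% for WT and 48.2% for W330R. The WT calls, Car2 and Car8 left aside, were Car3 and Car5b upward and Car6, Car9 and Car13 downward, and those of W330R were Car2 and Car5b upward and Car6, Car9 and Car13 downward. Each call of Car6, over time or between genotypes, rests on conditions through which it passed the filter. The same holds for the upward calls of Car2 and Car3 from undifferentiated cells to day 2. Whether the genotype effects changed between day 2 and day 6 was tested directly. No member was called for W330R against WT, beside 0.0895% of all genes (13 genes by edgeR, 24 with the replicate block, 128 by DESeq2, 975 at an unadjusted p under 0.05). For the double mutant against W330R, 0% of all genes were called by edgeR, 2 genes with the replicate block, 33 by DESeq2, and 596 genes had an unadjusted p under 0.05.

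**Figure D3:**
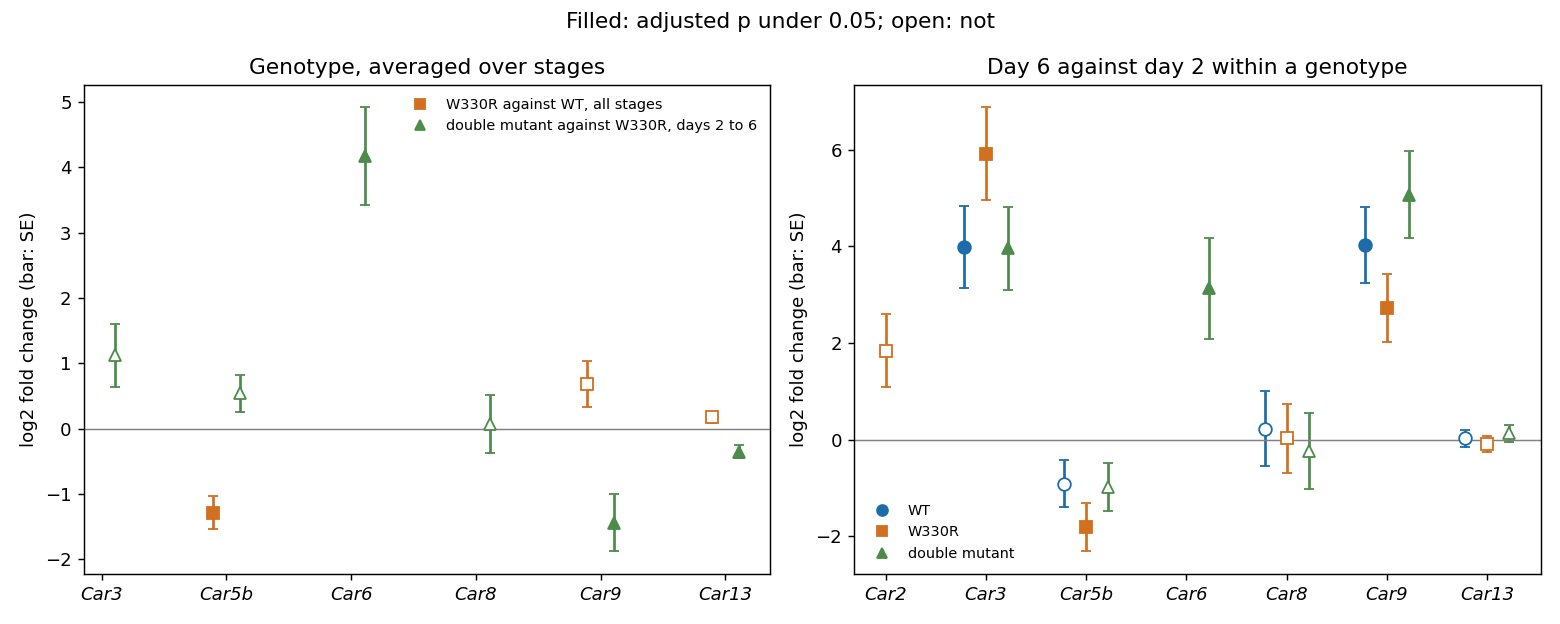
Log2 fold changes with their SE from the edgeR fit, for the averaged genotype comparisons and for day 6 against day 2, filled where the adjusted p was under 0.05. Car2 is drawn for W330R over time alone, and a value is left out where both libraries of a condition had at most 3 counts, except for Car6 of the double mutant against W330R (4.17), which depends on the prior count; Car5b falls in W330R against WT, and Car3 and Car9 rise over time in each genotype.

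Genes that carry or use the products of carbonic anhydrases were taken as lists. Of 20 bicarbonate, proton and lactate transporters that passed the filter, 4 were called between W330R and WT, 1 higher and 3 lower, with a median of 0.13, beside 22.9% and a median of 0.01 over all genes. With a replicate block 8 of the 20 were called, beside 28.2% of all genes. Slc16a1, the lactate carrier MCT1, differed by -1.18 (SE 0.26, adjusted p = 0.00635, edgeR). Slc4a5, a sodium bicarbonate cotransporter, differed by -2.33 (SE 0.71, adjusted p = 0.0313), from 1.11 to 0.389 CPM. Slc16a8, another lactate carrier, differed by -1.45 (SE 0.35, adjusted p = 0.00922), from 0.713 to 0.274 CPM. Both were thus at low levels. The anion exchanger Slc4a2 was 0.26 higher (SE 0.08, adjusted p = 0.0271). In the double mutant against W330R, 5 of the 20 passed the test, 2 higher and 3 lower, with a median of 0.09, beside 17.2% and 0.01 over all genes. Slc16a7, the carrier MCT2, had mean levels of 5.54 CPM in the double mutant and 0.0809 CPM in W330R (adjusted p = 8.77e-05). The bicarbonate transporters Slc4a3 and Slc4a4 differed by -0.60 (SE 0.18, adjusted p = 0.034) and -0.45 (SE 0.12, adjusted p = 0.0165), and Atp6v1a, a subunit of the vacuolar proton pump, by 0.42 (SE 0.13, adjusted p = 0.0324). Over days 2 to 6 in WT, 5 were called, 3 higher and 2 lower, with a median of 0.15, beside 26.6% and 0.02 over all genes, among them Slc16a1 (-3.19, SE 0.56) and Slc4a4 (-2.14, SE 0.21), and 8 were called with the replicate block, beside 32.1% of all genes. Over the same days 4 were called in W330R, 2 higher and 2 lower, and 4 in the double mutant, 1 higher and 3 lower, beside 25% and 23.2% of all genes.

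Of 9 enzymes tested that use bicarbonate, 6 were called between W330R and WT, all lower, with a median of -0.52, beside 11.8% of all genes called lower and a median of 0.01. Of 9 adipocyte markers tested, 5 were called there, all lower, with a median of -0.85, and their part was not tested. Pcx, the pyruvate carboxylase of mitochondria, differed by -1.23 (SE 0.23, adjusted p = 0.00229, edgeR). The acetyl-CoA carboxylases Acaca and Acacb, which open fatty acid synthesis and restrain fatty acid oxidation, differed by -0.58 (SE 0.11, adjusted p = 0.0027) and -0.77 (SE 0.17, adjusted p = 0.0059). Mccc2, a subunit of the leucine-degrading methylcrotonyl-CoA carboxylase, differed by -0.65 (SE 0.13, adjusted p = 0.003). In the double mutant against W330R, 2 of the 9 passed the test, both higher, with a median of 0.24 (17.2% of all genes, 7.87% higher), namely Mccc2 (0.47, SE 0.15, adjusted p = 0.0399) and Acaca (0.41, SE 0.13, adjusted p = 0.0413). With a replicate block 4 of them were called, beside 21.9% of all genes. In WT between days 2 and 6, 4 were called, 3 higher and 1 lower, with a median of 0.46 (26.6% of all genes). Acacb rose by 2.92 (SE 0.35) and Pcx by 1.64 (SE 0.45). In W330R 4 were called, 2 in each direction, and in the double mutant 2, 1 in each direction, where 25% and 23.2% of all genes were called.

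Of 20 hypoxia-responsive genes, the class to which Car9 belongs, 11 were called between W330R and WT, 1 higher and 10 lower, with a median of -0.29, beside 22.9% of all genes, 11.8% lower, and a median of 0.01. Car9 was not called there. The 4 with the largest differences were the glycolytic enzyme Aldoa (-1.19, SE 0.17, adjusted p = 0.00052, edgeR), the mitophagy receptor Bnip3 (-1.14, SE 0.23, adjusted p = 0.00331), the hexokinase Hk2 (-1.06, SE 0.16, adjusted p = 0.000768) and Ankrd37 (-1.05, SE 0.25, adjusted p = 0.00775). In the double mutant against W330R, 9 passed the test, 7 higher and 2 lower, with a median of 0.30, beside 17.2% and 0.01 over all genes. Ndrg1 was lower (-1.11, SE 0.19, adjusted p = 0.00128), as Car9 was, whereas Ankrd37 (1.05, SE 0.28), Bnip3 (0.98, SE 0.26) and Aldoa (0.96, SE 0.20) were higher. Between day 2 and day 6 in WT, 9 were called, all higher, with a median of 0.74, beside 14.8% of all genes called higher and a median of 0.02, among them Ndrg1 (3.23, SE 0.35) and the peptide hormone gene Adm (3.15, SE 0.38). In W330R 8 were called, 4 in each direction, and in the double mutant 9, of which 5 were higher, beside 25% and 23.2% of all genes. Several of these genes are also adipocyte or glycolytic genes, and the adipocyte markers moved with them as given above, and their part was not tested.

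The genes whose levels were most like those of Car2 over the 22 libraries, by Pearson correlation of log2 CPM among 11155 genes searched, were Wnt5a (r = 0.896), which encodes a WNT ligand, Aff2 (0.890), Unc119 (0.869), the transcription factor gene Maf (0.859) and Mks1 (0.854). Genotype and stage are shared by these libraries, and the values are a description. Among the members, Car2 and Car6 had a correlation of -0.748 over the 22 libraries and -0.637 over the 18 libraries of days 2 to 6. Car2 with Adipoq had 0.662 and 0.180.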

How the data were processed

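RNA was sequenced from 22 libraries of C3H 10T1/2 cells in 11 conditions. The authors deposited estimated counts for each gene symbol as whole numbers without normalization. Per the labels, their processing used kallisto, DESeq2 1.40 and the build GRCm39, and whether counting used strand is not given in the sources used here. The article given with the series does not describe these libraries.

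From the deposited counts, filterByExpr of edgeR 4.0.16 (R 4.3.3, minimum count 10, minimum total 15) kept 14520 of 30170 genes. After TMM normalization, 1 quasi-likelihood model with a mean for each of the 11 conditions was fitted to all libraries, and 16 contrasts were tested with a Benjamini-Hochberg adjusted p under 0.05 as the threshold. SE values were obtained as the absolute log2 fold change over the root of the F statistic. The step was tested on simulated data. Car2 was left out of tests between genotypes on days 2 to 6, and its fits over time in WT and the double mutant are shown with no p. Same-numbered libraries deviated together in each of 9 pairs of conditions among days 2, 4 and 6 (correlations over 0.1) but not with undifferentiated cells (-0.032 to 0.030). This pairing was seen in the data and not in the labels. Values with a replicate block stand where they change the call of a member. The block also raised counts of the gene lists, and not all of those are given. Where both libraries of a condition had at most 3 counts, levels, counts, or ratios of pooled counts with exact (Clopper-Pearson) 95% intervals were given. The labels do not name separate cultures, so p-values measure the spread between these samples, which may be technical. All conditions shared 1 estimate of the spread for each gene. The counts of the 2 libraries differed little in undifferentiated cells (chi-square per degree of freedom 3.32 in WT and 3.00 in W330R). On days 2 to 6 that value was 27.9 to 96.8. Tests in undifferentiated cells thus carry the spread of the other conditions as well. Library depth limits the precision of genes of few counts, and PCR copies are not independent molecules.

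The members, lists and tests were chosen with earlier results of these data known. The text names all members, other carbonic anhydrases by level, up to 4 called genes of each list with the largest change per averaged or time contrast, and the 5 genes most like Car2 and 3 most like Car3 by Pearson correlation of log2 CPM (prior count 2, mean log2 CPM of at least 1). Alternatives were DESeq2 1.42.0, RLE size factors, no filter, a replicate block, a fit of the compared conditions alone, and leaving out each library. Promoter sequences are from RefSeq (GRCm38.p6), matched by symbol.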

Additional observations from a re-analysis of the deposited data

How the results depend on the processing

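Over all members called and all alternatives, 216 of 261 values kept their direction and call, 45 lost the call and 0 reversed. These values include 9 for Car2 and 9 for Car8 between day 2 and undifferentiated WT cells, for which no test is given above. RLE size factors changed no count of members called. Without the filter, 1 member was called for W330R against WT on day 4 (Car5b) and 1 for the double mutant against W330R on day 4 and on day 6 (Car6 each time). DESeq2 called 1 on the same 3 (Car5b, Car6 and Car6) and 1 for the double mutant against W330R on day 2 (Car9). Both left Car8 uncalled between day 2 and undifferentiated WT cells, and DESeq2 and the fit of the compared conditions alone added Car2 between days 2 and 6 in W330R. With a fit of the compared conditions alone, which leaves few degrees of freedom, 1 was called in undifferentiated cells (Car8) and 0 for W330R against WT on day 6. The same fit called 1 for the double mutant against W330R averaged (Car6) and 0 for day 6 against day 2 in the double mutant. Calls of Car8 against undifferentiated WT cells are not read as results, since Car8 passed the filter through those libraries. Averaging W330R against WT over days 2 to 6 only, an alternative chosen after seeing the data, called 2 (Car3 and Car5b).

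Leaving out a library gave 0 to 1 members for W330R against WT on day 6, 1 to 3 for the double mutant against W330R averaged, 0 to 1 for it on day 2 (Car9, without double mutant replicate 1), 1 to 2 for day 6 against day 2 in W330R (1 without replicate 1 of day 2 or of day 6), 1 to 3 for that in the double mutant (1 without its replicate 2 of day 2), 5 to 6 for day 2 against undifferentiated WT cells (with Car2 and Car8 counted), 4 for that in W330R, and -5.16 to -3.26 for the log2 difference of Car2 between the double mutant and WT. A condition left with 1 library was assumed to vary like the others.

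Same-numbered libraries of 12 pairs of conditions had correlations of their deviations from -0.032 to 0.300, and the 9 pairs among days 2, 4 and 6 were all over 0.1. With a replicate block, 1 member was called for W330R against WT on day 4 (Car5b) and 1 for the double mutant against W330R on day 6 (Car6), and no other count of members changed.

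The count over all genes moved more than the members did. For W330R against WT, undifferentiated and at days 2, 4 and 6 in turn, it was 254, 445, 891 and 1095, against 392, 909, 1848 and 1757 with the replicate block, 528, 1079, 1696 and 1754 by DESeq2, and 4194, 0, 0 and 57 from the compared conditions alone. For the double mutant against W330R on days 2, 4 and 6 it was 387, 278 and 218, against 749, 542 and 498 with the block, 908, 693 and 674 by DESeq2, and 0 each alone. Day 6 against day 2 gave 3862 in WT and 3369 in the double mutant, and 1030 and 80 alone. The change of the W330R effect gave 13, against 24 with the block, 33 without the filter, 128 by DESeq2 and 0 alone, and that of the double mutant effect 0, against 2, 4 and 33 in the same order of the first 3. Leaving out a library lowered the count in undifferentiated cells to between 48 and 58, and that of the double mutant against W330R to between 2 and 125 on day 4 and 19 and 77 on day 6. The cause of these differences was not tested. Low counts limit what can be said of Car2 in the double mutant and of Car4, Car6, Car8 and Car12.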
